A study of Mus musculus with 21 samples.

Results

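The share of transcripts that came from mitochondrial genes was compared across all cell types of injured and uninjured mouse muscle. For each cell the deposited tables give the percent of its unique molecular identifiers (UMIs, each marking 1 captured transcript) from mitochondrial genes, called the mitochondrial share here. The members were the medians of this share over the cells of 1 Harmony cell type in 1 sample, taken where the sample held at least 10 cells of that type. This gave 423 of 483 possible medians, covering all 23 types, all 21 samples and 83655 of 87822 cells. Among cells with 2000 to 5000 UMIs, 288 medians from 23932 of 26299 cells remained. A further 42 medians came from 2100 cells with a myogenic state (quiescent, activated, committed or fusing).

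All samples were tibialis anterior muscles of female C57Bl/6J mice aged 20 months, with 1 mouse per sample and no genetic change named in the labels. Muscles were uninjured (4 mice) or taken at 1 (4), 2 (3), 3.5 (4), 5 (3) or 7 (3) days post-injury (dpi) after injection of notexin, a venom enzyme that breaks down muscle fibers and leaves many of the stem cells that rebuild them. Whole muscle was digested with enzymes into a suspension and filtered before capture, so whole fibers, which are long syncytia, could not enter a droplet, and the barcodes labelled myonuclei hold pieces or nuclei of them at most. The cell type labels came from clustering gene expression across an integration with single-nucleus data, in which mitochondrial genes may have taken part, and they could not be checked against marker genes because the tables hold no values for single genes.

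Mitochondria carry their own small genome, whose messenger RNAs are polyadenylated and are therefore captured together with nuclear messenger RNAs. In the GENCODE M21 annotation of mm10 this chromosome holds 37 genes, made up of 13 protein-coding, 22 transfer RNA and 2 ribosomal RNA genes. The protein-coding genes encode 7 subunits of respiratory complex I (such as mt-Nd1), 1 of complex III (mt-Cytb), 3 of complex IV (such as mt-Co1) and 2 of ATP synthase (mt-Atp6 and mt-Atp8). The tables do not state which of them were summed. In single-cell data the share is read in different ways, as a mark of cells rich in mitochondria, such as muscle fibers, and as a mark of damaged cells that have lost cytoplasmic RNA, while isolated nuclei carry almost none.

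The study removed cells above 30% mitochondrial transcripts before the tables were deposited. The samples held between 5602464 and 70730171 UMIs in all. The 4 uninjured libraries stood apart in quality values, with 44.2 to 56.3% of reads in cells, compared with 47.7 to 94.8% after injury, and with 25.3 to 49.5% of called barcodes left in the tables, compared with 54.3 to 83.2%. Cells above 25% made up 3.39 to 19.6% of the uninjured samples and 0.319 to 2.04% of the injured samples, so the limit of 30% bears mostly on the uninjured ones. No pair of libraries shared more than 0.418% of cell barcodes, and all cells were labelled singlets by the study.

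The cell types spanned a wide range of mitochondrial shares. Cells labelled Neural, a label that does not say which cells of the nerve it holds, had the highest level, with a median over samples of 12.97%, followed by muscle stem cells (MuSCs, 11.8%) and B cells (11.8%). Myonuclei, the nuclei of muscle fibers, had the lowest, at 0.728% for type IIb and 0.848% for type IIx. Type and sample each accounted for a similar part of the variation: alone they explained 45.6% and 44.9% of the sum of squares over the 423 medians, and together 86.4%, leaving a residual SD of 1.76 percentage points.

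**Figure D1:**
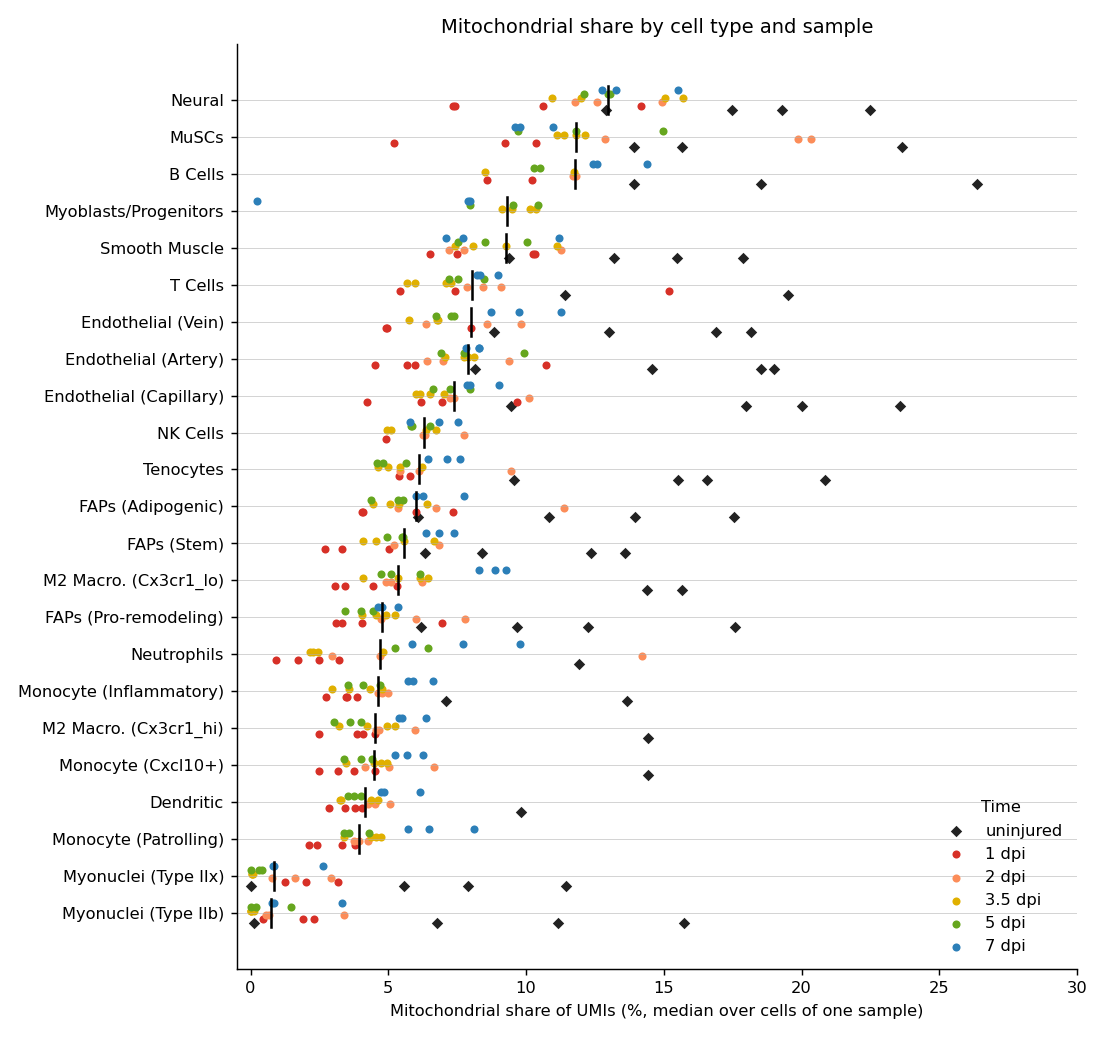
Median mitochondrial share of UMIs (x axis, %) of each Harmony cell type (rows) in each sample with at least 10 cells of that type. Diamonds are uninjured samples, circles injured samples coloured by time, and vertical bars the median over samples. Most of the uninjured diamonds lie to the right of most circles in nearly every row, and the myonuclei of injured muscle lie at or below 3.40%.

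Each type was then compared with the median of the other types in the same sample. Of 23 types, 17 (73.9%) differed from the rest, 8 (34.8%) higher and 9 (39.1%) lower (two-sided exact sign-flip test over samples, Benjamini-Hochberg adjusted p below the threshold of 0.05). Neural cells were higher by 6.53 ± 1.93 percentage points (mean ± SD, n = 21) and higher in 21 of 21 samples, MuSCs by 5.74 ± 3.69 (n = 19) in 19 of 19, and B cells, the antibody-producing lineage, by 5.24 ± 2.25 (n = 14) in 13 of 14. The adjusted p-values of these exact tests were 7.31e-06, 1.25e-05 and 0.000374. Smooth muscle, all 3 endothelial types and T cells were also higher, by 1.63 to 2.70 points.

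The 3 highest types varied widely between samples. Neural medians were 17.5, 22.5, 19.3 and 12.9% in uninjured samples A to D, and after injury they had a lowest value of 7.34%, a median of 12.8% and a highest value of 15.7%. MuSCs held 15.6, 23.7 and 13.9% in uninjured samples A to C, and a lowest value of 5.21%, a median of 11.3% and a highest value of 20.3% after injury. B cells held 13.9, 26.4 and 18.5% in uninjured samples A to C, and a lowest value of 8.53%, a median of 11.7% and a highest value of 14.4% after injury. In all 3 types the uninjured and injured values overlapped, and uninjured sample B was the highest of all.

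At the other end, type IIb myonuclei lay 5.04 ± 1.80 points (n = 20) below the other types and type IIx myonuclei 5.45 ± 1.86 points (n = 19), in every sample (adjusted p = 1.1e-05 and 1.25e-05, exact sign-flip test). The medians of type IIb were 6.75, 15.7, 11.2 and 0.133% in uninjured samples A to D, 0.452, 2.32 and 1.89% at 1 dpi (A, B and D), and 0.686, 0.553 and 3.40% at 2 dpi. They were 0.0134, 0.123, 0.0187 and 0.00452% at 3.5 dpi, 0, 1.45 and 0.199% at 5 dpi and 3.33, 0.870 and 0.770% at 7 dpi. Uninjured samples A to C were far above every injured sample, while uninjured sample D was at the level of the injured ones, and all 4 samples at 3.5 dpi were close to 0.

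Type IIx myonuclei, from a fast fiber type with more mitochondria than type IIb, showed the same split of the uninjured samples. Their medians were 5.58, 11.5, 7.89 and 0% in uninjured samples A to D and had a lowest value of 0%, a median of 0.824% and a highest value of 3.17% after injury. Within samples the 2 myonuclear types did not differ detectably, with type IIx lower by 0.421 ± 1.32 points on average, lower in 9 of 19 samples and higher in 9 (adjusted p = 0.525, exact sign-flip test).

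Above the myonuclei came the myeloid cells. Patrolling monocytes had a median over samples of 3.93%, dendritic cells 4.15%, Cxcl10+ monocytes 4.49%, Cx3cr1_hi M2 macrophages 4.52%, inflammatory monocytes 4.61%, neutrophils 4.70% and Cx3cr1_lo M2 macrophages 5.34%. The first 3 and the Cx3cr1_hi macrophages and inflammatory monocytes were each below the other types of their sample, by 1.21 to 2.03 points. Neutrophils (adjusted p = 0.209) and Cx3cr1_lo macrophages (adjusted p = 0.937, both exact) did not pass the test.

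Stromal cells lay in the middle. Fibro-adipogenic progenitors (FAPs), the fibroblast-like cells that support regeneration, had levels of 4.78% (pro-remodeling), 5.58% (stem) and 6.01% (adipogenic), and tenocytes, the cells of tendon, 6.12%. Endothelial cells reached 7.38% (capillary), 7.89% (artery) and 8.02% (vein), smooth muscle 9.29%, NK cells 6.30%, T cells 8.03% and myoblasts and progenitors, the proliferating and differentiating muscle precursors, 9.30%. Among the FAPs, the pro-remodeling and stem cells were below the other types (1.28 and 0.982 points, adjusted p = 0.000928 and 0.0156, exact), and the adipogenic cells were not past the threshold (adjusted p = 0.863, exact).

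Single steps in this order were mostly within the spread. Of the 22 pairs of neighbours in the order, 2 (9.09%) differed within samples: patrolling monocytes were 3.25 ± 1.68 points above type IIx myonuclei (n = 15, adjusted p = 0.00134), and capillary cells 1.03 ± 0.873 points above NK cells (n = 14, adjusted p = 0.0107, exact sign-flip tests). The other 20 neighbouring pairs did not differ beyond their spread (adjusted p from 0.246 to 0.964, exact). Among the 13 types with enough uninjured samples, the order of their uninjured medians was similar to that of their injured medians (Spearman's rho = 0.780 across types).

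The minimum of 10 cells per median was not a break in the values. The 18 medians just inside it (10 to 12 cells) had a median of 8.78% and ranged from 0.0867 to 14.4%, and the 20 just outside (7 to 9 cells) had a median of 9.11% and ranged from 0.0460 to 17.98%.

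The share also varied with the number of UMIs in a cell. Within a sample and type, cells with more UMIs mostly had a lower mitochondrial share: the median over samples of Spearman's rho between share and UMIs was below 0 in 22 of 23 types, from -0.60 in stem FAPs to -0.12 in neutrophils. These correlations are across cells of 1 library, which share its depth, and are given as a description. In the 7 samples (1 of them uninjured) with at least 10 pro-remodeling FAPs in both ranges, the median was 7.90% at 2000 to 5000 UMIs and 4.44% at 10000 to 20000 UMIs, lower in 7 of 7. In 18 samples with type IIb myonuclei in both ranges, it was 2.80% at 1000 to 2000 UMIs and 0.527% at 2000 to 5000 UMIs, lower in 18 of 18. Myoblasts and progenitors were the exception, with a median rho of 0.09.

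Restricted to cells with 2000 to 5000 UMIs, 22 types could be tested and 12 (54.5%) differed from the rest, 6 higher and 6 lower (27.3% each). Neural cells (higher by 6.36 points, n = 13, adjusted p = 0.00134) and B cells (higher by 4.15, n = 10, adjusted p = 0.00614) stayed above the others, and myonuclei stayed below, by 7.33 (type IIb, n = 18) and 7.70 points (type IIx, n = 14, adjusted p = 0.000168 and 0.00123, exact). Neutrophils, not past the threshold over all cells, were 3.04 points below the rest in this window (n = 15, adjusted p = 0.00242, exact). MuSCs, with a difference of 3.85 points in 9 samples, no longer passed it (adjusted p = 0.0907, exact).

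Most types had a higher level in this window than over all their cells. Tenocytes went from 6.12% to 11.6%, adipogenic FAPs from 6.01% to 11.1% and Neural cells from 12.97% to 16.98%, whereas T cells (8.03% and 7.94%) and neutrophils (4.70% and 4.77%), hardly differed. Myoblasts and progenitors went the other way, from 9.30% (10 samples) to 0.312% (6 samples). The types are not covered by the same samples in both sets, and venous endothelial cells had only 5 samples in the window.

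**Figure D2:**
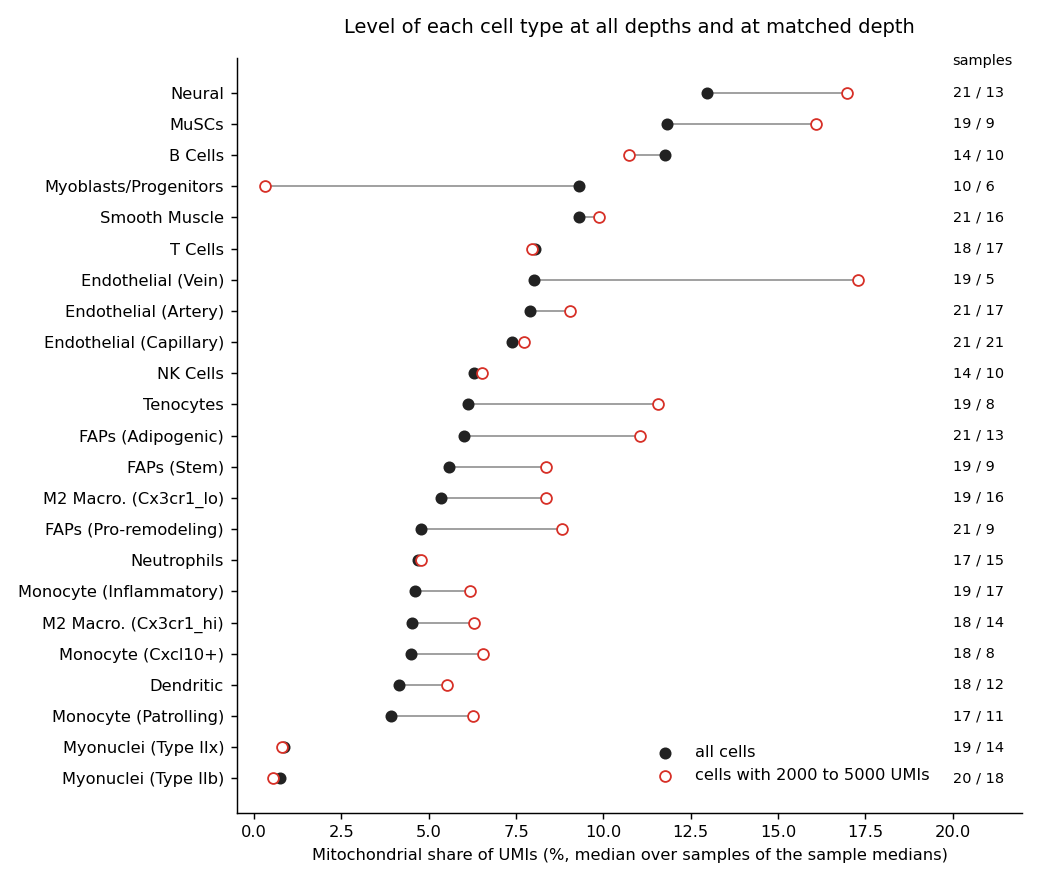
Level of each cell type (median over samples of the sample medians, %) over all cells (filled) and among cells with 2000 to 5000 UMIs (open), with the number of samples behind each at the right. Most open circles lie to the right of the filled ones, while myoblasts and progenitors fall from 9.30 to 0.312%.

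The number of mitochondrial UMIs per cell ordered the types differently from the share (Spearman's rho = 0.503 across 23 types). Myoblasts and progenitors held the most, with a median over samples of 1333 mitochondrial UMIs per cell, followed by MuSCs with 892 and smooth muscle with 841. Pro-remodeling FAPs, with a low share, held 739 among 15051 UMIs in all, while B cells, with a high share, held 371 among 3012. Type IIb and IIx myonuclei held 14.6 and 20.4, and neutrophils 111.

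Injury was accompanied by lower mitochondrial shares in every type that could be compared. Of the 13 types with at least 3 uninjured and 6 injured samples, 13 (100%) were lower in injured than in uninjured samples and none higher (0%), by 4.80 to 10.5 percentage points (two-sided exact permutation test of the means, adjusted p from 0.00217 to 0.0351). The uninjured medians were 14.5 (type IIb) and 8.17 times (type IIx) the injured ones in myonuclei, and 1.39 (MuSCs) to 2.84 times (tenocytes) in the others. The other 10 types, among them all myeloid cells, T cells and NK cells, had fewer than 3 uninjured samples with 10 cells. The 13 results are not independent, since the types come from the same mice.

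Capillary endothelial cells, which line the smallest vessels, showed the largest fall of the 13 types in percentage points. Their medians were 20.02, 23.6, 17.99 and 9.45% in uninjured samples A to D, and after injury they had a lowest value of 4.22%, a median of 7.23% and a highest value of 10.1%. The mean fell from 17.8 ± 6.002% (SD, n = 4) to 7.30 ± 1.43% (n = 17), with an adjusted p of 0.00217 (exact permutation test). Uninjured samples A to C lay above all injured samples and sample D lay inside their range.

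Tenocytes were the only type of the 13 whose groups did not overlap (7.69%). Their medians were 15.5, 20.8, 16.6 and 9.56% in uninjured samples A to D and had a lowest value of 4.58%, a median of 5.66% and a highest value of 9.46% in 15 injured samples, a difference of -9.64 points (adjusted p = 0.00217, exact permutation test). Arterial endothelial cells held 18.5, 19.01, 14.6 and 8.16% in the uninjured samples and a lowest value of 4.53%, a median of 7.76% and a highest value of 10.7% after injury (-7.44 points, adjusted p = 0.00253, exact). Uninjured sample D was inside the injured range of the arterial cells, and its tenocytes were just above theirs. B cells (-8.44 points, adjusted p = 0.00595) and type IIb myonuclei (-7.44 points, adjusted p = 0.00326, exact tests), with the values given above, completed the 5 largest falls.

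The remaining types fell by 4.80 to 6.68 points. They were venous endothelial cells (-6.68), pro-remodeling (-6.63), adipogenic (-6.13) and stem FAPs (-4.80), MuSCs (-5.79), Neural cells (-5.56), smooth muscle (-5.23) and type IIx myonuclei (-5.10 points). In MuSCs, the least secure of them (adjusted p = 0.0351), the injured samples included samples A and B at 2 dpi, at 20.3 and 19.9%, and the call was lost on a log2 scale, with a minimum of 5 cells and with the replicate letter as a block (adjusted p = 0.0727, 0.0922 and 0.05).

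**Figure D3:**
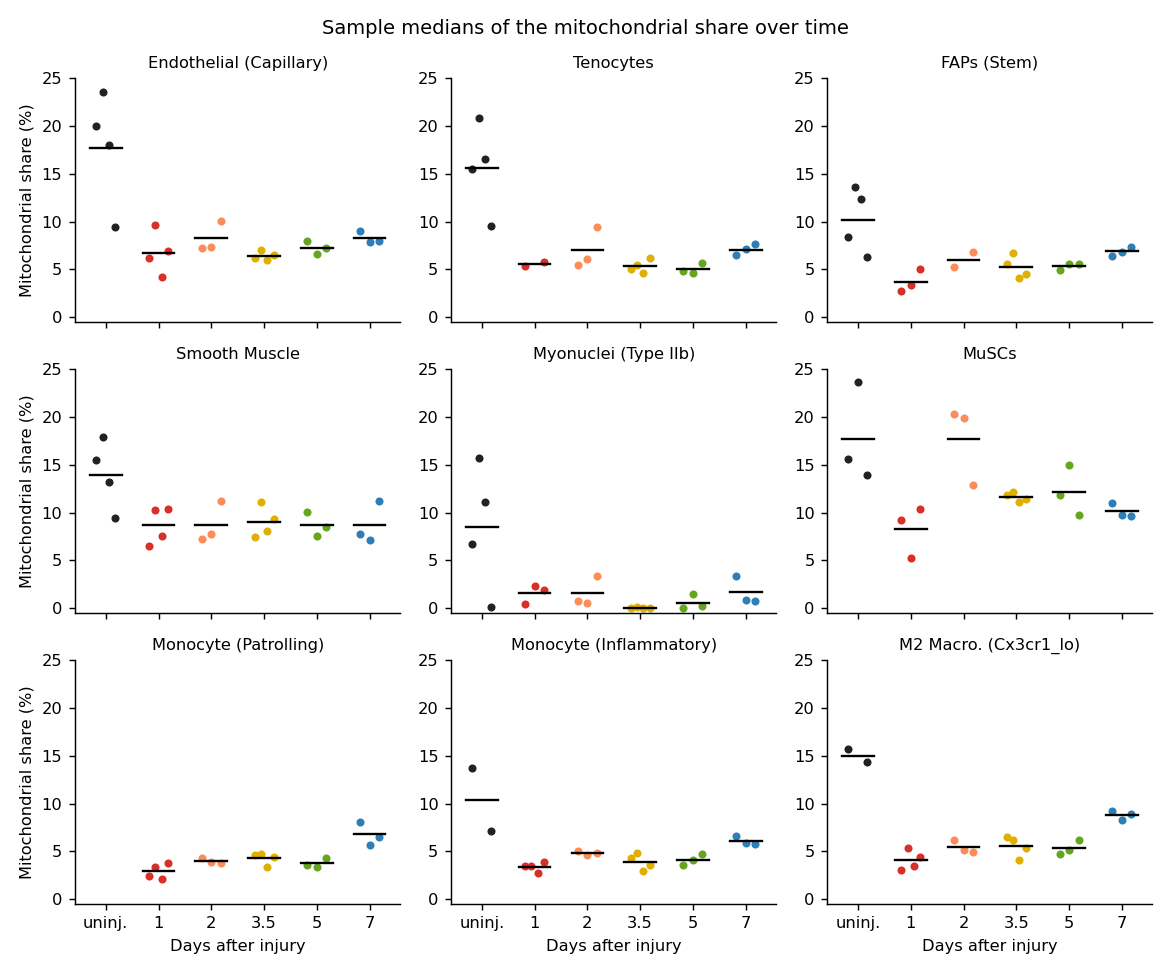
Median mitochondrial share (y axis, %) of 9 cell types in each sample by days after injury (x axis, with uninj. for uninjured) where points are samples and horizontal bars the group means. In the upper 2 rows the uninjured samples lie highest, apart from sample D and from the MuSCs. In MuSCs, samples of 2 dpi (up to 20.3%) and 5 dpi (up to 14.98%) lie above the lowest uninjured one (13.9%). The bottom row shows monocytes and macrophages, of which the 7 dpi samples lie above all earlier injured ones.

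The difference was found across depths and time points. Among cells with 2000 to 5000 UMIs, 8 of 8 types that could be tested (100%) were lower after injury, by 4.62 to 10.3 points (adjusted p from 0.00535 to 0.0196, exact permutation test). All 59 comparisons of a single time point with uninjured samples, over 13 types, had a lower mean after injury, by 0.0448 points (MuSCs at 2 dpi) to 11.3 points (capillary cells at 3.5 dpi). They reuse the same 3 or 4 uninjured samples, and the types come from the same mice, so the 59 are not independent. In 21 of them (35.6%) the groups did not overlap, 6 (10.2%) had an unadjusted exact p below 0.05 and none passed after adjustment (0%). The smallest p that 4 against 3 or 4 samples can give is 0.0286 and the smallest adjusted p was 0.125, while limma's moderated test on the same medians called 58 of 59 (98.3%).

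The 4 uninjured samples did not behave alike. In 10 of the 13 types uninjured samples A to C were all above every injured sample. Uninjured sample D was the lowest uninjured sample in all 11 types in which it had a median, and in 10 of these it was at or below the highest injured sample. Over all types, the sample level (the median of its type medians) was 15.5, 17.6, 13.6 and 8.16% in uninjured samples A to D and 3.47 to 7.77% in the 17 injured samples, so that the groups did not overlap at this level. Without sample D, 13 of 13 types remained past the threshold.

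Library quality moved with the injury groups. The uninjured libraries had few reads in cells and fewer UMIs per cell (sample medians of 3115 to 4774, compared with 3873 to 14614 after injury), and their part in the difference was not tested. One injured library, 1 dpi replicate B, also had few reads in cells (47.7%). Its sample level of 4.91% was below that of every uninjured sample and the highest at 1 dpi, where replicates A, C and D had 3.47, 4.04 and 4.44%. Among the 17 injured samples, which were examined apart because the uninjured ones form a separate group, the sample level showed no detectable relation to reads in cells (Pearson's r = -0.23, permutation p = 0.375, Spearman's rho = -0.35, p = 0.173, adjusted p = 0.943 for both over 10 relations, r = -0.41 without the 2 samples farthest from the median and r = -0.51 within time points). SoupX contamination, saturation, reads per cell and UMIs per cell showed none either (adjusted permutation p = 0.943 for each, Pearson's r from -0.15 to 0.06 and Spearman's rho from -0.21 to 0.13). Without the 2 farthest samples their r ranged from -0.31 to 0.03, and within time points from -0.30 to 0.56. With the median over all cells of a sample in place of the median of its types, r was -0.50 and rho -0.60 for reads in cells (permutation p = 0.0411 and 0.0125, adjusted p = 0.141 and 0.125, r = -0.52 without the 2 farthest samples and -0.68 within time points) and -0.35 and -0.50 for UMIs per cell (permutation p = 0.165 and 0.0422, adjusted p = 0.367 and 0.141). Among the injured samples, a lower share in libraries with more reads in cells was thus seen at an unadjusted threshold only, with the median over all cells. Over all 21 samples the relation of the sample level to reads in cells passed adjustment (r = -0.69 and rho = -0.61, adjusted permutation p = 0.0084 and 0.0202). There the uninjured libraries, with few reads in cells and high shares, form a separate group, and within time points r was -0.08.

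**Figure D4:**
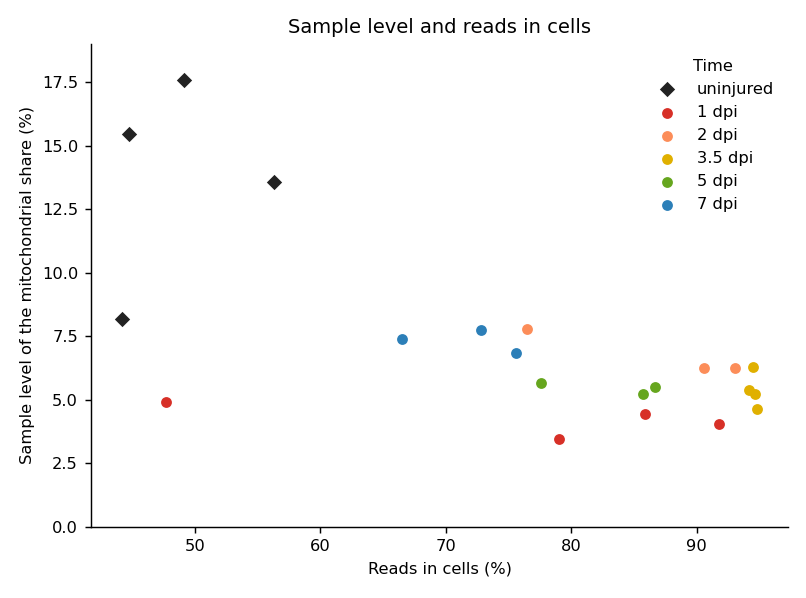
Sample level of the mitochondrial share (y axis, median of the type medians, %) against the percent of reads in cells (x axis) for the 21 samples. The 4 uninjured samples (diamonds, 8.16 to 17.6%) lie at the upper left, and 1 dpi replicate B lies at 47.7% of reads in cells and 4.91%.

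The lower share had a different make-up in different types when mitochondrial and other UMIs per cell were counted apart. Mitochondrial UMIs per cell were lower after injury in 6 of 13 types (46.2%) and higher in none (0%), and non-mitochondrial UMIs were higher in 4 (30.8%) and lower in 1 (7.69%, exact permutation tests on sample medians on the log2 scale, chosen after the shares had been seen). In capillary, arterial and smooth muscle cells the mitochondrial UMIs fell by 0.97, 0.81 and 0.78 on the log2 scale (adjusted p = 0.00579, 0.00543 and 0.00543, exact), and the differences in the other UMIs were 0.29, 0.18 and -0.25, none past the threshold. B cells (-1.12) and Neural cells (-0.55) also had fewer mitochondrial UMIs, and so did type IIb myonuclei (-3.40, adjusted p = 0.0385, exact, with 1 UMI added to every median before the log). Type IIx myonuclei, with -2.39, did not pass the test (adjusted p = 0.179, exact). In both myonuclear types uninjured sample D, with a median share of 0.133 and 0%, was at the injured level.

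Pro-remodeling FAPs, adipogenic FAPs and tenocytes showed the reverse make-up. Their non-mitochondrial UMIs per cell rose by 1.57, 1.09 and 1.45 on the log2 scale (adjusted p = 0.00652, 0.0152 and 0.00783, exact permutation test), while their mitochondrial UMIs differed by 0.23, -0.06 and 0.01 (adjusted p = 0.541, 0.885 and 0.964). Venous cells also had more non-mitochondrial UMIs (0.60, adjusted p = 0.0143, exact). UMIs per cell are not scaled for sequencing depth, which differed between the groups.

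Relative to the other types of the same sample, 5 of 13 types (38.5%) changed with injury. Capillary cells lay 4.59 points above the other types in uninjured samples and 1.74 above them after injury (difference -2.85, adjusted p = 0.0101), and tenocytes went from 2.45 above to 0.0819 above (-2.37, adjusted p = 0.0101, exact permutation tests). Stem FAPs, type IIx myonuclei and smooth muscle rose relative to the rest, by 3.45, 2.78 and 2.57 points (adjusted p = 0.00335, 0.0176 and 0.0369, exact). On this scale of points a type near 0 can fall only a little. Type IIx myonuclei had an injured median of 0.824%, and their uninjured median was 8.17 times as high. The set of other types differs between the groups, since most immune types had under 10 cells in uninjured samples. With capillary cells as the common reference 11 of 12 types rose and none fell. This direction largely follows from the choice of reference, since capillary cells had the largest fall of the 13 types.

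Over the time points with at least 2 samples, 19 of 23 types (82.6%) varied with time (permutation test of F, 100000 resamples, adjusted p below 0.05), of which 14 were among the 16 types with all 6 time points and 5 among the 7 types tested on 3 to 5 time points after injury alone. Without the uninjured samples, a choice made after seeing the data, 5 of 23 varied with time (21.7%). These 5 were patrolling monocytes (adjusted p = 0.00425), inflammatory monocytes (0.00425), Cx3cr1_lo macrophages (0.00613), dendritic cells (0.0439) and MuSCs (0.0439, permutation tests). Among injured samples, the lowest value of a type came from 1 dpi in 18 of 23 types, in 13 of them from replicate C, and the highest from 2 dpi in 10 and from 7 dpi in 8. Without 7 dpi replicate A, 12 of the 23 types passed the first test. Among cells with 2000 to 5000 UMIs 5 of 21 types passed it (23.8%), a count that ranged from 0 to 12 when 1 sample was left out (0 without any of 6 samples, which are named with the effects of processing, and 12 without uninjured sample D) and was 0 with the replicate letter as a block.

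In 4 of 23 types (17.4%) the 3 samples at 7 dpi lay above every earlier injured sample, and they were patrolling and inflammatory monocytes, Cx3cr1_lo macrophages and B cells. The medians of patrolling monocytes were 2.42, 3.33, 2.12 and 3.79% at 1 dpi, 4.27, 3.93 and 3.75% at 2 dpi, and 4.56, 4.73, 3.40 and 4.36% at 3.5 dpi. They were 3.59, 3.38 and 4.28% at 5 dpi and 8.12, 5.70 and 6.49% at 7 dpi. The highest of the earlier samples was 3.5 dpi replicate B, and the lowest 1 dpi replicate C.

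The same separation was seen in inflammatory monocytes, the first monocytes to enter injured muscle, with 6.64, 5.88 and 5.73% at 7 dpi and 2.74 to 5.00% before. Cx3cr1_lo macrophages held 9.27, 8.29 and 8.87% at 7 dpi and 3.08 to 6.45% before. B cells held 12.4 to 14.4% at 7 dpi and 8.53 to 11.8% before. Dendritic cells held 6.14, 4.75 and 4.86% at 7 dpi and 2.84 to 5.06% before, so their groups overlapped. UMIs per cell were lower at 7 dpi than at 1 dpi in all 4 myeloid types, with sample medians in Cx3cr1_lo macrophages of 5170 to 6038 compared with 7675 to 13132. Some samples at 2 and 5 dpi were lower still. Their lowest medians were 4547 and 5103 in Cx3cr1_lo macrophages. In inflammatory monocytes they were 3568 and 3989 (4398 at 7 dpi), and in dendritic cells 4196 and 4394 (6004 at 7 dpi). In patrolling monocytes the lowest median was at 7 dpi (5621, compared with 6690 at 2 dpi). In the window of 2000 to 5000 UMIs 0 of 19 types (0%) passed the test over the times after injury (permutation test of F, 4 at an unadjusted p below 0.05, adjusted p = 0.139 for Cx3cr1_lo macrophages and 0.571 for patrolling monocytes). These 4 myeloid types had 11 to 16 samples there in place of 17, and 7 dpi still had their highest mean. It was 9.83% in patrolling monocytes, 7.26% in inflammatory monocytes, 10.7% in Cx3cr1_lo macrophages and 8.96% in dendritic cells. The lowest means of a time point were 5.69, 5.06, 6.27 and 3.64%. The part of depth in the values at 7 dpi was not tested beyond this.

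Neutrophils and T cells each had 1 sample far from the others. Neutrophils at 2 dpi held 14.2, 2.96 and 4.70% in replicates A to C, and 1.71, 2.49, 0.920 and 3.23% at 1 dpi. T cells at 1 dpi held 15.2, 5.42 and 7.41% in replicates A, C and D. In cells with 2000 to 5000 UMIs the neutrophils of 2 dpi replicate A came down to 7.33%, while the T cells of 1 dpi replicate A stayed at 16.8%.

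Within the myogenic lineage, the states before fiber formation had high shares and the myonuclei low ones. The median over samples was 11.1% in quiescent MuSCs (14 samples), 10.1% in activated MuSCs (10), 9.47% in committed myoblasts (8) and 9.53% in fusing myocytes (10). Of 15 pairs of states and myonuclear types, 9 (60%) differed within samples (two-sided exact sign-flip test, adjusted p below 0.05). Of these, 8 set a state 8.61 to 10.4 points above a myonuclear type, in every sample that held both.

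Among the 4 states, quiescent MuSCs were above committed myoblasts by 1.95 ± 1.59 points in 8 of 8 samples (adjusted p = 0.0146, exact sign-flip test). Quiescent MuSCs held 16.5, 23.9 and 14.2% in uninjured samples A to C and 4.79% in the 11 cells of 1 dpi replicate C. They held 11.6, 10.7, 10.7 and 11.2% at 3.5 dpi, 11.5, 15.7 and 9.74% at 5 dpi and 10.9, 9.81 and 9.60% at 7 dpi. Committed myoblasts held 9.53, 9.63 and 9.94% at 3.5 dpi (B to D), 9.42, 10.02 and 8.62% at 5 dpi and 8.77 and 8.75% at 7 dpi (A and B). The largest difference was in 5 dpi replicate B, where quiescent cells were well above those of every other injured sample. Quiescent cells also had fewer UMIs than committed myoblasts in each sample that held both. The medians were 5171 and 12913 in 5 dpi replicate B and 15134 and 18599 in 5 dpi replicate C. The part of UMIs per cell in this difference was not tested.

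Activated MuSCs lay between them, with 11.2, 11.5, 9.82 and 9.96% at 3.5 dpi, 9.83, 14.5 and 8.37% at 5 dpi and 10.3, 9.59 and 11.005% at 7 dpi, and their difference from committed myoblasts of 1.16 ± 1.55 points did not pass the test (adjusted p = 0.0586, exact). Fusing myocytes, which join into fibers, held 8.93, 8.75, 9.05 and 11.1% at 3.5 dpi, 10.2, 9.12 and 8.13% at 5 dpi, 11.9 and 9.95% at 7 dpi (A and B) and 19.5% in uninjured sample A. The uninjured value rests on 10 cells with medians of 1756 UMIs and 4.97% ribosomal protein RNA. In the injured samples these medians were 8028 to 48249 UMIs and 12.6 to 19.9%. Of all fusing myocytes, 13.2% had a mitochondrial share below 1%, which the medians do not show. Fusing myocytes did not differ detectably from committed myoblasts (committed minus fusing -0.449 points, higher in 4 of 8 samples, adjusted p = 0.438, exact). In the window of 2000 to 5000 UMIs too few states reached 10 cells, and the 1 pair that could be tested, of the myonuclear types, did not differ (0%, adjusted p = 0.455, exact).

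MuSCs at 2 dpi, which had few cells with a state, differed from those of 3.5 to 7 dpi in more than the mitochondrial share. In replicates A to C, 100 of 104, 27 of 30 and 19 of 22 MuSCs had no state, and their median share was 20.5, 20.2 and 12.8%. Their ribosomal protein share was 4.86, 7.89 and 3.42%, compared with 18.2 to 22.7% in the MuSCs without a state at 3.5 to 7 dpi, and they had 1373, 1615 and 2873 UMIs per cell, compared with 6128 to 14708. At 1 dpi the MuSCs without a state also had few UMIs (1428 to 2347 per cell in the 4 samples). Their ribosomal protein share was 8.04 to 26.7% and their mitochondrial share 5.21 to 20.3%, the lowest of both in replicate C. The highest of both came from replicate B, with only 4 such cells, and the next, 20.4 and 15.7%, from replicate A with 11. The markers of these MuSCs could not be examined.

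Cells with almost no mitochondrial UMIs were concentrated in a few labels. A share below 1% was found in 40.5% of cells labelled type IIb myonuclei, in 42.8% of those labelled type IIx, in 21.4% of neutrophils (11.5% without 1 dpi replicate C, median over samples 5.26%) and in 17.8% of myoblasts and progenitors, and in at most 2.17% of any other type, counted over the samples with 10 cells. No Neural cell was below 1% (0 of 1015 cells, which allows a share of up to 0.296%, pooled over 21 mice and for counting error only). No mitochondrial UMI at all was left in 386 type IIb and 191 type IIx myonuclei and in 90 myoblasts and progenitors. The limit of 1% was set after the distributions had been seen, and the counts of cells below it are a description.

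Myoblasts and progenitors fell into separate ranges. Of 969 cells, 172 were below 1%, 28 between 1 and 3%, and 26 within 0.5 points of the limit, whereas most of the others lay in a mode near 9%. The cells below 1% had a median over samples of 4510 UMIs, 12.7% ribosomal protein RNA and 0.339% lincRNA, and the others 16730 UMIs, 20.01% and 1.19%. A state was missing for 72.8% of the cells below 1% and for 7.08% of the others, and BBKNN labelled 76.9% and 5.13% of them myonuclei.

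Such cells made up more of this label where UMIs were few. In the window of 2000 to 5000 UMIs, 59 of 103 myoblasts and progenitors were below 1%, compared with 47 of 699 cells above 10000 UMIs. Their share differed between samples, from 4.84% (3 of 62 cells, 95% interval 1.01 to 13.5%) in 3.5 dpi replicate B to 55.2% (32 of 58 cells, 95% interval 41.5 to 68.3%) in 7 dpi replicate C (Clopper-Pearson intervals, covering counting error only). The sample medians were 9.12, 10.1, 9.48 and 10.4% at 3.5 dpi, 9.53, 10.4 and 7.96% at 5 dpi and 7.90, 7.95 and 0.238% at 7 dpi, so that 1 sample was near 0 and the other 9 lay between 7.90 and 10.4%.

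Myonuclei showed no such gap, with 368 of 2673 type IIb cells between 1 and 3%. The cells below 1% made up 5.10% (16 of 314 cells, 95% interval 2.94 to 8.14%) of type IIb in uninjured sample B and 94.4% (17 of 18 cells, 95% interval 72.7 to 99.9%) in 3.5 dpi replicate D, the lowest and the highest of 20 samples. In uninjured sample D they made up 58.9% (43 of 73 cells, 95% interval 46.8 to 70.3%). Type IIb cells below 1% had more UMIs than the others (medians over samples of 2849 and 1650) and a similar share of ribosomal protein RNA (7.69 and 7.11%). Among cells of at least 1% both myonuclear types were still below the other types of their sample, by 2.62 and 3.08 points (adjusted p = 7.02e-05 and 0.000374, exact sign-flip test).

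Neutrophils, short-lived granulocytes with few mitochondria, had a continuous distribution with 512 of 2392 cells within 0.5 points of the limit. The share below 1% was 51.4% (303 of 589 cells, 95% interval 47.3 to 55.5%) in 1 dpi replicate C and 28.7% (139 of 484 cells, 95% interval 24.7 to 32.97%) in 1 dpi replicate A, and at most 14.3% in the other 15 samples. Replicate C was also the sample with the lowest neutrophil median.

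**Figure D5:**
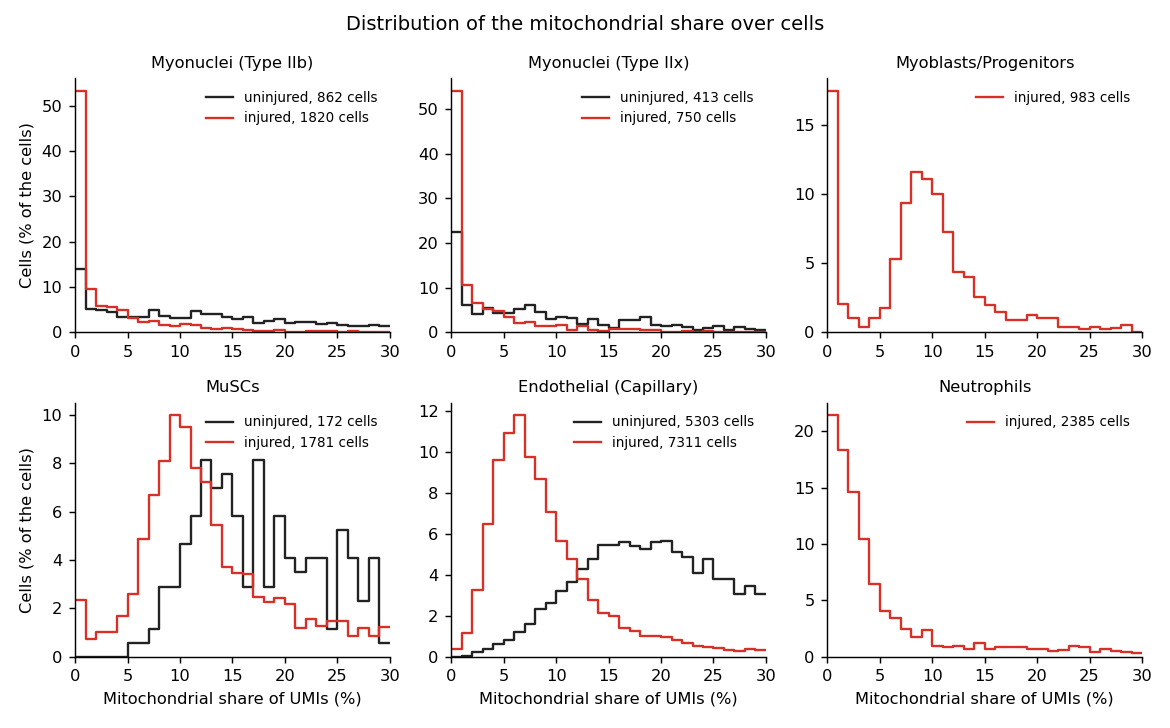
Distribution of the mitochondrial share over single cells (x axis, %, in steps of 1 point) as percent of the cells (y axis) of 6 types, pooled over uninjured (black) or injured (red) samples and drawn where there were at least 50 cells. Myonuclei pile up below 1% after injury, myoblasts and progenitors have one mode below 1% and another near 9%, and uninjured capillary cells reach up to the limit of 30%.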

How the data were processed

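Tables with 1 row per cell were read for 21 samples. Per the labels and the methods of the study, reads of 10x Chromium v3 libraries had been aligned by Cell Ranger (3.1.0 in the submitters' processing notes) to the mm10 genome. The authors then subtracted ambient RNA with SoupX, filtered cells with Seurat (3.1.5 in those notes) at a limit of 30% mitochondrial transcripts, and used DoubletFinder to take out doublets. A cell's UMI total, as deposited, is an expected count, which the correction by SoupX left not whole and which was not normalized. The genes per cell and, per sample, the reads per cell and barcodes are counts deposited by the authors. The deposited percent values are the parts of a cell's corrected UMIs from mitochondrial, ribosomal protein or lincRNA genes, and per sample the saturation and reads in cells. SoupX contamination was deposited as a fraction for each sample, as the authors estimated it. The correction takes UMIs off gene by gene and the 30% limit cuts the upper tail, so both can lower a median.

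Medians per sample and cell type were compared with the mouse as the unit. Within-sample differences were tested by two-sided exact sign-flip tests (at least 6 samples), injured against uninjured samples by exact permutation of the difference in means, and time courses by permutation of F with 100000 resamples, each adjusted by the Benjamini-Hochberg method within its family. Calculations were made with scipy 1.17.1, pandas 2.3.3 and numpy 2.4.6 in Python 3.11.15, with limma 3.58.1 (R 4.3.3) as an alternative and matplotlib 3.10.9 for figures. The tests were first tested on simulated data. Of the pooled correlations planned over 21 samples only the one with reads in cells is given, since the uninjured samples form a separate cluster. Alternatives were means over cells, pooled shares, a log2 scale (0.1 points added), minimums of 5 or 20 cells, at least 750 genes, at most 20% mitochondrial UMIs, 5000 to 10000 UMIs, BBKNN labels, a capillary reference, a block for the replicate letter, and omission of each sample in turn. The 23 types, the states and the comparisons were chosen with earlier results of these data known. Every type is named. Values are given for the 3 highest types, the 3 lowest, the states and the 5 largest changes with injury. In several of these types they are given per uninjured sample, with the lowest, median and highest value after injury. The values per sample of neutrophils, T cells, myoblasts and the myeloid types at 7 dpi were added after they were seen.

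The labels do not say what the replicate letters share, and the study collected several time points on 1 day. Deviations of same-lettered samples from their group means correlated with a median r of 0.032 over 48 pairs, not all above 0.1, so the letters were not used as a block in the main tests. Mitochondrial UMIs per cell were compared as log2 of the median with 1 UMI added.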

Additional observations from a re-analysis of the deposited data

Results flagged for a closer look

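In groups of 4 samples, 2 of 47 had a sample set apart from the others by Dixon's criterion, and chance sets apart about 1 in 20 such groups. Type IIb myonuclei of 3.5 dpi replicate B had a median share of 0.123%, next to 0.0187% in the nearest of the other 3 samples. Both values are near the floor. By the labels that also give the states, type IIb cells held medians of 1.80 (replicate B) and 0.242 (replicate C) mitochondrial UMIs. Neutrophils of 3.5 dpi replicate C had 4.82%, next to 2.43%.

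The change with injury of 5 types differed from that of the other types of the same samples (exact permutation test, adjusted p below 0.05). Relative to the rest, capillary endothelial cells moved by -2.85 points and tenocytes by -2.37, while stem FAPs moved by 3.45, type IIx myonuclei by 2.78 and smooth muscle by 2.57 points. Type IIx myonuclei rose only relative to the rest and on the scale of points. Their own medians fell by 5.10 points, and the uninjured median was 8.17 times the injured one. Without uninjured sample A, 3 types passed, and B cells and MuSCs had too few uninjured samples to be tested.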

How the results depend on the processing

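Across single types and pairs, 1141 recomputed results kept their direction and their side of the threshold, 13 lost the call, 17 gained one and 5 changed sign. With capillary cells as the reference in place of the median of the other types, arterial (-0.258 points, adjusted p = 0.515), venous (-0.774, 0.201), NK cells (-1.03, 0.00153) and tenocytes (-1.43, 0.000189, exact sign-flip tests) turned from above to below, by construction since capillary cells lie above the median. Then 11 of 12 types changed with injury relative to the reference, whose own fall was the largest of the 13 types. Pro-remodeling FAPs turned to 0.0622 points above the others (adjusted p = 0.908, exact) among cells with 5000 to 10000 UMIs.

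The number of neighbouring pairs past the threshold, 2 in the report, was 4 with means over cells, 5 with pooled shares, 1 with at least 5 cells and 0 with 5000 to 10000 UMIs. With 5000 to 10000 UMIs, 4 of 18 types varied with time, 8 of 9 fell with injury, and 1 of 2 pairs of states differed, in place of 19 of 23, 13 of 13 and 9 of 15 at all depths. Of the pairs of states, 5 of 6 differed with at least 20 cells and 3 of 10 among cells of at least 1%. In the window of 2000 to 5000 UMIs, 7 of 17 types differed from the others with at least 20 cells, in place of 12 of 22. There, 13 of 14 types fell with injury with at least 5 cells, 5 of 5 with at least 20 cells and 5 of 5 by limma, and 2 of 3 pairs of states differed with at least 5 cells. The time course in that window was the least stable result, with 5 of 21 types in the report, 3 with means over cells, 16 with at least 5 cells, 0 with at least 20 cells, 8 of 10 by limma and 0 without the uninjured samples. Over all cells, 5 of 23 types varied with time without the uninjured samples. For single days against uninjured, limma called 58 of 59 and the exact test 0.

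Leaving out 1 sample at a time gave 17 to 19 types past the threshold against the others, 2 neighbouring pairs throughout, 12 to 19 types over time (12 without 7 dpi replicate A), 11 to 13 with injury, 3 to 5 relative to the others (3 without uninjured sample A) and 8 to 10 pairs of states. In the window the ranges were 11 to 14 types against the others, 5 to 8 with injury (5 without uninjured sample A or B) and 0 to 12 over time. The last was 0 without uninjured sample B or C, 5 dpi replicate A or B or 7 dpi replicate A or B, 1 without 5 or 7 dpi replicate C, and 12 without uninjured sample D. The number of types tested also changed in these ranges. B cells and MuSCs had 3 uninjured samples, the minimum, and could not be tested for injury when 1 of these was left out. In the window the same held for adipogenic and pro-remodeling FAPs. A lower count with injury can thus mean fewer types tested, and other causes were not tested.

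With the replicate letter as a block, 18 of 23 types varied with time, 0 of 21 did so in the window, 12 of 13 fell with injury (MuSCs lost the call, adjusted p = 0.05, permutation test), 7 of 8 fell in the window and 4 of 13 changed relative to the others. Whether the letters mark a shared batch is not known. As a hint, 15 of 21 samples correlated better on average with samples of their own letter, while r between same-lettered samples ranged from -0.570 to 0.617.

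Neutrophils passed the threshold as lower than the other types without 2 dpi replicate A (-1.57 points) and with BBKNN labels (-3.00), and myoblasts and progenitors as higher without 7 dpi replicate C (3.48). The shares of myonuclei rest on few mitochondrial UMIs, with a median over samples of 14.6 (type IIb) or 20.4 (type IIx) per cell. The uninjured samples, few and of uneven quality, carry the comparison with injury.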

Other observations

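Cells without a Harmony label, 3897 in all, were outside every comparison. In the 17 samples with at least 10 of them, their median mitochondrial share ranged from 6.26 to 16.2%, with a median of 10.97%, and in 1 sample it was below the sample level of the labelled types. In 1 dpi replicate C, 298 such cells had a median of 16.2%, compared with a sample level of 4.04%.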
